A study of Mus musculus with 4 samples.

Results

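The genes described here are the Wnt ligands, their Frizzled receptors and Lrp, Ror, Ryk and Ptk7 partner receptors, and the proteins of planar cell polarity, compared between cilia-deleted and control growth plate chondrocytes of the mouse. They were picked out by the gene symbol that the array annotation gives. The list of symbols was chosen with earlier results of these data known. They comprise 52 genes read by 103 probe sets, out of 18193 genes and 45101 probe sets (64 of them controls) on the array. There were 2 samples from Col2aCre;Ift88fl/fl mice, in which Ift88, which encodes a carrier protein needed to assemble the primary cilium, is deleted where the Col2a-driven Cre recombinase is active. Against them stood 2 samples from control mice labelled wild-type. All mice were 7 days old and on the C57BL/6 background. The tissue was the proliferative zone, where chondrocytes divide in columns, cut from the proximal tibia and the distal femur with a needle. Cells in the cut piece in which the Cre is not active therefore keep Ift88. The labels call the samples biological replicates and do not say how many animals went into each.

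Wnt proteins are secreted, lipid-modified ligands that bind Frizzled receptors. With the coreceptors Lrp5 and Lrp6 they signal through Dishevelled to stabilise beta-catenin, and with Ror2, Ryk or Ptk7 they act on cell shape and orientation without it. Planar cell polarity, in which Vangl with Prickle and Frizzled with Dishevelled take opposite sides of a cell while Celsr proteins join neighbouring cells, aligns cells within a tissue, and mouse limb cartilage that lacks Wnt5a, Ror2 or Vangl2 elongates poorly. Fuz and Intu are polarity effectors that vertebrate cells also need to build cilia.

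Values are log2, and each probe set is centred on its median over the 4 arrays. They therefore show how arrays differ and hold no levels. A gene's value is the mean over its probe sets. Over the 52 genes the SD was 0.141 and 0.168 in the Ift88-deleted arrays, against 0.216 and 0.141 in the control arrays. Control 1 was the widest array over all genes too (SD 0.254, against 0.149 to 0.187 in the others), and it held the value farthest from 0 for 19 of the 52 genes (36.5%, against 42.2% of all genes). The X-linked RNA Xist had a log2 difference of -7.36 and the Y-linked gene Eif2s3y one of 3.34. Both Ift88-deleted arrays had low Xist and high Y-linked values and both control arrays the opposite, so that genotype and sex by these genes cannot be told apart in any result given here. Ift88 itself was at 0.22 and -0.07 in the Ift88-deleted arrays, against 0.07 and -0.08 in the control arrays, and whether its probe set reads the deleted stretch was not examined, so its value checks nothing about the deletion. The labelled cell type cannot be read from levels. Of the 13 probe sets of 8 chondrocyte markers, 12 fell in the brightest of 3 coarse classes of original value, against 32.2% of all probe sets. Of bone markers 5 of 6 probe sets did, and of perichondrium and fibroblast markers 7 of 10. Of muscle markers 3 of 12 did, of marrow and blood 3 of 7, of osteoclast 2 of 5, of endothelium 2 of 6 and of joint surface 0 of 4. The chondrocyte markers' differences ran from -0.54 to 0.25.

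No member gene passed the test. Over all genes limma called 2 (0.011%) at an adjusted p under 0.05, and these were the sex-linked Xist and Eif2s3y. Of the 52 members limma called 0, the lowest adjusted p being 0.692. At an unadjusted p under 0.05 there were 5 members (9.62%, against 5.96% of all genes), 4 lower (7.69%, against 3.68%) and 1 higher (1.92%, against 2.29%) in the Ift88-deleted arrays. Those lower were Wnt5a, Wnt11, Scrib and Fat4, and the one higher was Dchs1. The groups did not overlap for 14 members lower (26.9%, against 18.6% of all genes) and 4 higher (7.69%, against 14.7%), together 18 (34.6%, against 33.3%). The median difference over the members was -0.024 and over all genes -0.007. The difference between groups was larger than the gap between replicates in both groups for 12 members (23.1%, against 21.3% of all genes). Of the 103 member probe sets, fitted singly, 0 passed (0.0444% of all probe sets did). At an unadjusted p under 0.05 there were 9 (8.74%, against 6.17% of all probe sets), 6 lower (5.83%, against 3.18%) and 3 higher (2.91%, against 3.0%). The groups did not overlap for 30 probe sets (29.1%, against 33.6%), 21 lower (20.4%, against 17.4%) and 9 higher (8.74%, against 16.2%).

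In whole tissue a lower value can mean fewer cells of a type or less RNA per cell, and these cannot be told apart.

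The intervals bound differences in these array values, averaged over a gene's probe sets. Detection above background was not measured. The 95% interval of the difference lay within a 2-fold change either way for 51 of the 52 genes (98.1%, against 95% of all genes), each interval taken by itself. The exception was Wnt5a, whose interval ran from -1.18 to -0.10. Of the 103 member probe sets, fitted singly, 92 had an interval within a 2-fold change (89.3%, against 90.6% of all probe sets). The standard errors of the member genes ran from 0.121 to 0.318, the widest being that of Ror2. The plot of differences with their intervals shows the receptors close to 0 and the members of unadjusted p under 0.05 farthest from it.

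**Figure D1:**
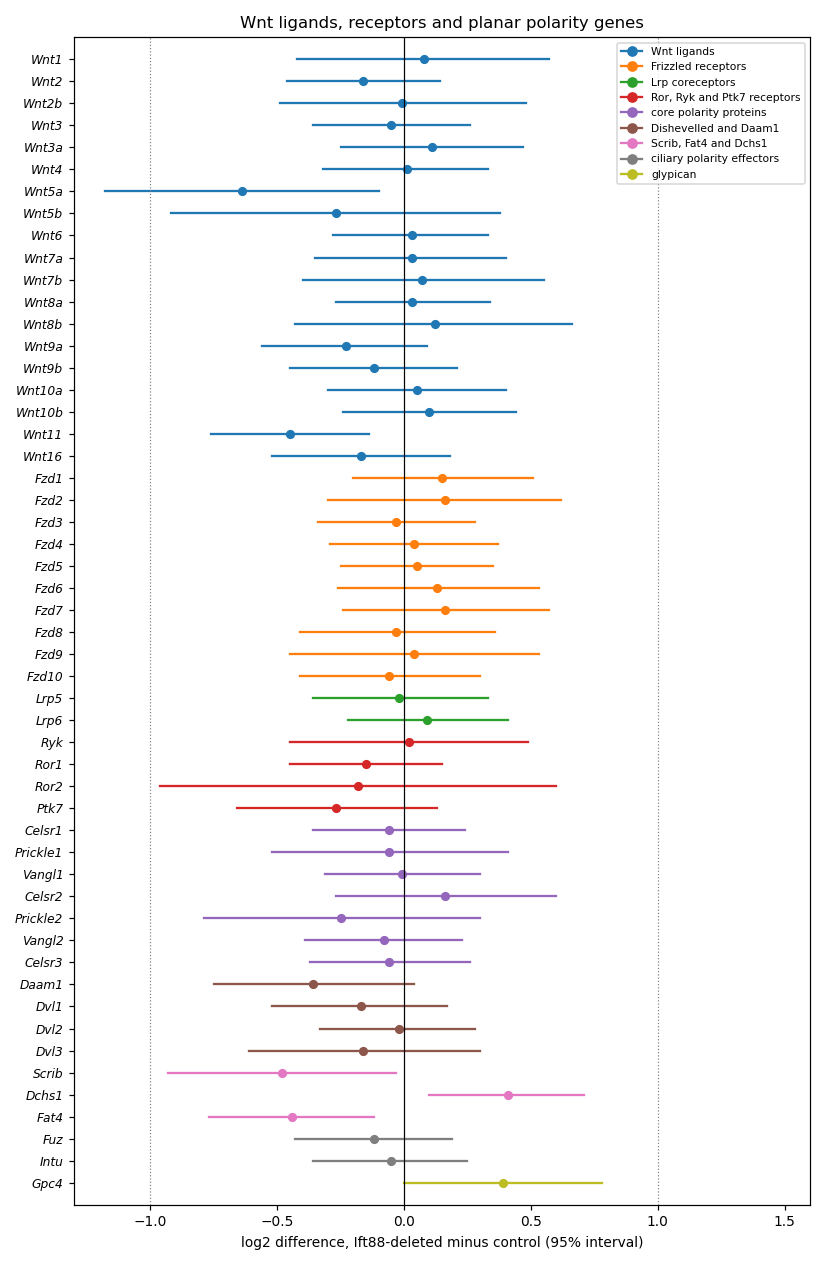
Log2 difference (Ift88-deleted minus control, horizontal axis) of the 52 genes with its 95% interval from limma, n = 2 arrays per group, coloured by subclass; dotted lines mark a 2-fold change. Wnt5a, Wnt11, Scrib and Fat4 lie wholly below 0 and Dchs1 wholly above 0, and only the interval of Wnt5a reaches past a dotted line.

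Among the Wnt ligands the differences below 0 were the larger ones. Of 19 ligand genes 10 were above 0 and 9 below, with a median of 0.008, and they ranged from -0.64 (Wnt5a) to 0.12 (Wnt8b). Without control replicate 1, 16 of the 19 were below 0 (84.2%, against 55.8% of all genes) and the median was -0.145 (-0.026 over all genes). The groups did not overlap for 5 of them (26.3%, against 33.3% of all genes), all lower (18.6% of all genes): Wnt5a, Wnt11, Wnt9a, Wnt16 and Wnt2. Those 5 are values, since 0 of them passed over all genes.

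Wnt5a, the ligand of Ror2 that orients elongating cartilage (chromosome 14, 28504543 to 28527448, GRCm38.p6), was at -0.05 and -0.48 in the Ift88-deleted arrays, against 0.59 and 0.15 in the control arrays. Control 1 was the high array and Ift88-deleted 2 the low one, and the groups did not overlap. The log2 difference was -0.64, a 1.55-fold lower value (SE 0.219, n = 2 per group, limma adjusted p = 0.814). Of its 4 probe sets, 3 lay close together at -0.85 (1436791_at), -0.83 (1448818_at) and -0.66 (1437673_at), and 1456976_at was at -0.21. For 1436791_at the groups touched, at 0.00 and -0.90 in the Ift88-deleted arrays against 0.80 and 0.00 in the control arrays. Leaving out the high array, control 1, gave the gene -0.41, and leaving out the low array, Ift88-deleted 2, gave -0.42.

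Wnt11, a ligand that acts mostly outside the beta-catenin branch (chromosome 7, 98835084 to 98854747), was the member with the lowest adjusted p. It was at -0.28 and -0.19 in the Ift88-deleted arrays, against 0.24 and 0.19 in the control arrays. The replicates lay close together and the groups were well apart. The difference was -0.45, 1.36-fold lower (SE 0.125, 95% interval -0.76 to -0.14, limma adjusted p = 0.692), and stayed between -0.49 and -0.40 as single arrays were left out. It rests on the probe set 1450772_at alone.

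Wnt5b, which mouse growth plates express beside Wnt5a, was at 0.14 and -0.60 in the Ift88-deleted arrays, against 0.18 and -0.11 in the control arrays. The groups overlapped, and Ift88-deleted 2 alone was low, as it was for Wnt5a. Its difference of -0.27 (SE 0.263) had a 95% interval of -0.92 to 0.38 and was 0.10 without Ift88-deleted replicate 2. Wnt9a, a ligand of joint-forming cartilage, was at -0.19 and -0.04 in the Ift88-deleted arrays, against 0.17 and 0.07 in the control arrays. Without overlap between the groups, the difference was -0.23 (SE 0.133, limma adjusted p = 0.915). Wnt4, a ligand of prehypertrophic chondrocytes and joints, was at 0.06 and -0.05 in the Ift88-deleted arrays, against 0.07 and -0.08 in the control arrays. Its difference of 0.01 had a 95% interval of -0.32 to 0.33.

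The other ligands lay nearer to 0. Wnt16 was at -0.17, its groups meeting at 0.00, Wnt2 at -0.16 without overlap, and Wnt9b at -0.12, with overlap. The classical activators of beta-catenin Wnt1 (0.08), Wnt3 (-0.05) and Wnt3a (0.11) had intervals that span 0. So did Wnt2b, Wnt6, Wnt7a, Wnt7b, Wnt8a, Wnt8b, Wnt10a and Wnt10b, whose differences ran from -0.01 to 0.12. Wnt8b had 3 probe sets, at 0.51, 0.01 and -0.17, and the first of these was at -1.14 in control 1 alone. Ligand genes that neighbour each other within 100000 bases form 4 pairs. Wnt1 and Wnt10b were at 0.08 and 0.10, Wnt6 and Wnt10a at 0.03 and 0.05, Wnt3 and Wnt9b at -0.05 and -0.12, and Wnt3a and Wnt9a at 0.11 and -0.23.

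**Figure D2:**
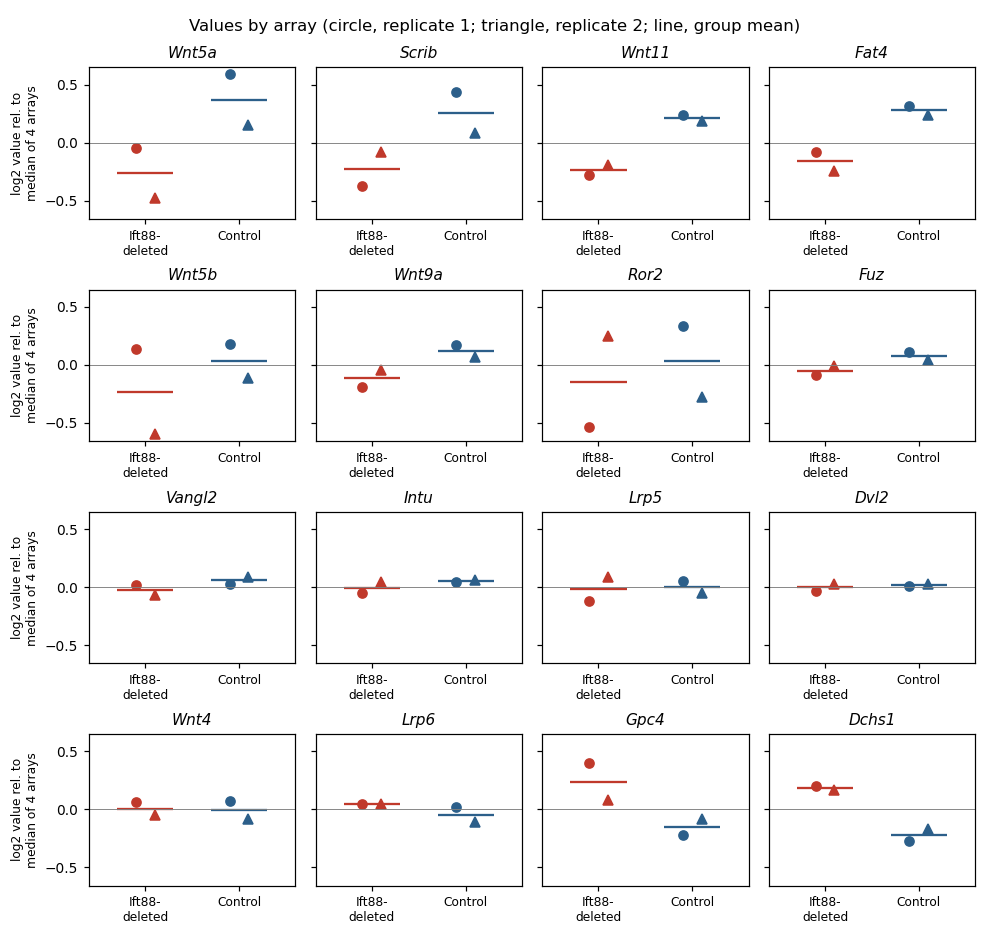
Log2 value relative to the median of the 4 arrays (vertical axis) of 16 member genes in Ift88-deleted and control arrays, ordered by difference; circles are replicate 1, triangles replicate 2 and lines the group mean. The groups stand apart with close replicates for Wnt11, Fat4 and Dchs1, spread widely for Ror2 and Wnt5b, and coincide for Wnt4 and Dvl2.

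The Frizzled receptors differed little between the groups. The 10 Frizzled genes, which encode the receptors with several membrane spans that bind Wnt, had a median of 0.046, with 7 above 0 and 3 below, from -0.06 (Fzd10) to 0.16 (Fzd2 and Fzd7). Of the Frizzled genes 1, Fzd5, had groups that did not overlap, at 0.03 and 0.03 in the Ift88-deleted arrays against -0.01 and -0.03 in the control arrays. That difference of 0.05 is the mean of a probe set at 0.20 and another at -0.10, each of which overlapped. Fzd1 was at 0.15, Fzd6 at 0.13, Fzd4 and Fzd9 at 0.04, and Fzd3 and Fzd8 at -0.03.

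Single probe sets of Frizzled genes differed from their gene's mean. The Fzd2 probe set 1418534_at was at 0.16 and 0.28 in the Ift88-deleted arrays, against -0.16 and -0.69 in the control arrays. It was thus higher without overlap, with control 2 the lowest array, by 0.64 (SE 0.213, limma adjusted p = 0.745 over all probe sets). The other Fzd2 probe sets were at 0.04 (1418532_at) and -0.20 (1418533_s_at). The 6 probe sets of Fzd3, the Frizzled used by the polarity pathway in neurons and hair cells, ran from -0.40 to 0.29. Over all members 14 of the 33 genes with 2 or more probe sets had probe sets of both signs, and the probe sets of 7 genes spanned over 0.5.

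**Figure D3:**
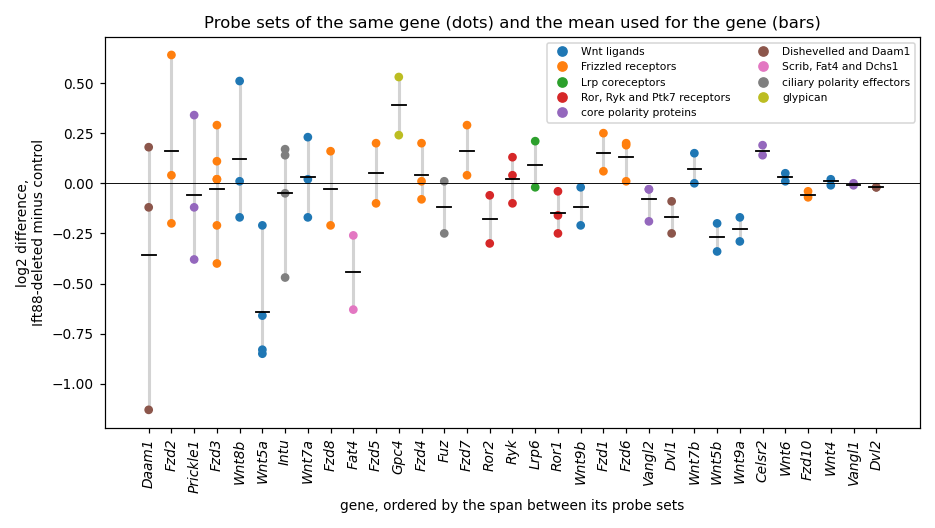
Log2 difference (Ift88-deleted minus control, vertical axis) of every probe set of the 33 genes with 2 or more, as dots coloured by subclass, with the mean used for the gene as a bar. Daam1 has the widest span, from -1.13 to 0.18, and 3 of the 4 Wnt5a probe sets lie together below -0.6.

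Of the coreceptors of the beta-catenin branch, Lrp5 was at -0.12 and 0.09 in the Ift88-deleted arrays, against 0.05 and -0.05 in the control arrays. The groups overlapped, and the difference of -0.02 had a 95% interval of -0.36 to 0.33. Lrp6 was at 0.05 in each of the Ift88-deleted arrays, against 0.02 and -0.11 in the control arrays, a difference of 0.09 (SE 0.127) without overlap. Control 2 was the low array for Lrp6.

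The receptors of the branch that acts without beta-catenin had a median of -0.164, and 3 of the 4 were below 0. That median rests on single arrays, being 0.018 without control replicate 1 and -0.319 without control replicate 2. Ror2, the Wnt5a receptor whose loss shortens mouse limbs, was at -0.54 and 0.25 in the Ift88-deleted arrays, against 0.34 and -0.28 in the control arrays. The replicates of each group lay farther apart than the groups, and the difference of -0.18 had the widest standard error of all members (0.318). Its probe set 1457128_at carried most of this spread, at -1.06 and 0.46 in the Ift88-deleted arrays against 0.39 and -0.39 in the control arrays. Ptk7, a pseudokinase receptor of the polarity pathway, was at -0.10 and -0.03 in the Ift88-deleted arrays, against 0.37 and 0.03 in the control arrays. Control 1 was the high array, and the difference of -0.27 (SE 0.159) was -0.09 without control replicate 1. Ror1 was at -0.15 without overlap and Ryk at 0.02 with overlap.

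Within planar polarity the genes of the core proteins differed little, and the larger values lay with Scrib, Fat4, Dchs1, Gpc4 and Daam1. Taken with the Dishevelled genes, Fuz and Intu, 14 of 17 polarity genes were below 0 (82.4%, against 51.9% of all genes), with a median of -0.06. Without Ift88-deleted replicate 1 that count was 10 of 17 (58.8%, against 49.9% of all genes), and without any other single array it was 13 (76.5%, against 48.9% to 55.8%). Of these 17 genes 0 passed over all genes. Pooling the 17 was not planned, unlike the single subclasses. The groups did not overlap for 7 lower (41.2%, against 18.6% of all genes) and 2 higher (11.8%, against 14.7%). As the plot of cumulative differences shows, the polarity genes lay to the left of all genes around 0, while the receptors lay close to them.

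**Figure D4:**
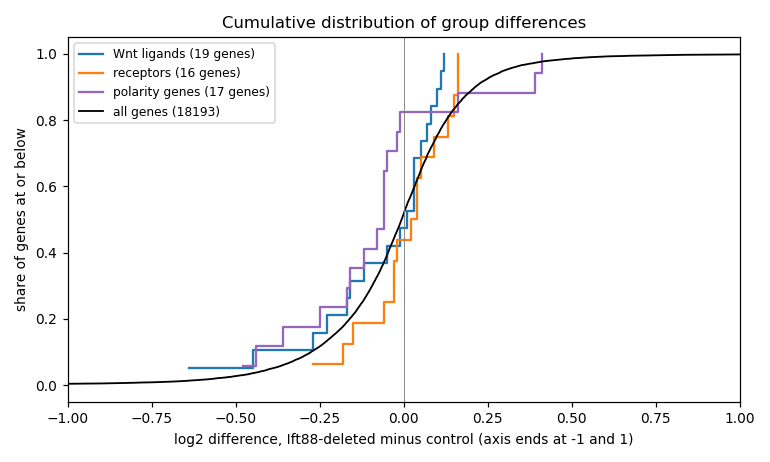
Share of genes (vertical axis) at or below each log2 difference (Ift88-deleted minus control, horizontal axis, drawn from -1 to 1) for the 19 ligands, 16 receptors, 17 polarity genes and all 18193 genes. Of the polarity genes 82.4% lie below 0, against 51.9% of all genes.

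Scrib, a scaffold of the basolateral membrane that interacts with Vangl2 (chromosome 15, 76047162 to 76069784), was at -0.37 and -0.08 in the Ift88-deleted arrays, against 0.44 and 0.08 in the control arrays. Control 1 was the high array, and the groups stood apart. The difference was -0.48, 1.40-fold lower (SE 0.182, 95% interval -0.93 to -0.03, limma adjusted p = 0.820), and it was -0.30 without control replicate 1.

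The giant cadherins Fat4 and Dchs1, a receptor and its ligand on neighbouring cells, had values in opposite directions. Fat4 (chromosome 3, 38884667 to 39011992) was at -0.08 and -0.24 in the Ift88-deleted arrays, against 0.32 and 0.24 in the control arrays. Its difference was -0.44, 1.36-fold lower (SE 0.132, 95% interval -0.77 to -0.12, limma adjusted p = 0.725). The groups were apart in both of its probe sets, with differences of -0.63 (1460574_at) and -0.26 (1459749_s_at). Dchs1 (chromosome 7, 105752989 to 105788355) was at 0.20 and 0.17 in the Ift88-deleted arrays, against -0.27 and -0.17 in the control arrays. Its difference was 0.41, 1.32-fold higher (SE 0.125, 95% interval 0.10 to 0.71, limma adjusted p = 0.752), from the probe set 1429163_at alone. For both genes the replicates lay closer together than the groups, and single arrays left out gave -0.52 to -0.36 for Fat4 and 0.36 to 0.45 for Dchs1. The difference between these 2 genes' responses was not tested.

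The 7 core polarity genes had a median of -0.057 and ran from -0.25 to 0.16. Vangl2, the membrane protein that marks one side of polarised cells, was at 0.02 and -0.07 in the Ift88-deleted arrays, against 0.03 and 0.09 in the control arrays. These groups did not overlap, yet the difference was only -0.08 (SE 0.125, 95% interval -0.39 to 0.23). Its relative Vangl1 was at -0.01. The cytoplasmic partner Prickle2 was at 0.07 and -0.56 in the Ift88-deleted arrays, against 0.00 in each of the control arrays, so that Ift88-deleted 2 alone made the difference of -0.25. Prickle1 was at -0.06 and held 3 probe sets of unlike sign, the lowest being 1442172_at at -0.38 and the highest 1444759_at at 0.34. The atypical cadherins Celsr1, Celsr2 and Celsr3 were at -0.06, 0.16 and -0.06.

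All 4 genes of Dishevelled, the cytoplasmic hub of every Wnt branch, and of its formin partner Daam1 were below 0, with a median of -0.165. Daam1 was at -0.08 and -0.13 in the Ift88-deleted arrays, against 0.43 and 0.07 in the control arrays, a difference of -0.36 (SE 0.161) that was -0.18 without control replicate 1. Its probe sets disagreed. The largest difference of any member probe set was that of 1458662_at, at -0.39 and -0.31 in the Ift88-deleted arrays against 1.25 and 0.31 in the control arrays. That is 2.19-fold lower, with control 1 far above the others (SE 0.316, limma adjusted p = 0.685 over all probe sets). The other Daam1 probe sets were at 0.18 (1455244_at) and -0.12 (1431035_at). Dvl1 was at -0.17 without overlap and Dvl3 at -0.16 with overlap. Dvl2 was at -0.03 and 0.03 in the Ift88-deleted arrays, against 0.01 and 0.03 in the control arrays, a difference of -0.02 with a 95% interval of -0.33 to 0.28.

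The polarity effectors that act at the base of the cilium differed little. Fuz was at -0.09 and -0.01 in the Ift88-deleted arrays, against 0.11 and 0.04 in the control arrays. Its groups stood apart, but the difference of -0.12 (SE 0.126) came from 1438749_at at -0.25 and 1431025_at at 0.01. Intu was at -0.05 and 0.04 in the Ift88-deleted arrays, against 0.04 and 0.06 in the control arrays, with a difference of -0.05 (SE 0.125). Its 4 probe sets ran from -0.47 to 0.17, and control 1 was at 0.75 for the lowest (1458595_at) and at -0.50 for the highest (1432781_at).

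Gpc4, a cell surface heparan sulfate proteoglycan that binds Wnt ligands (chromosome X, 52051007 to 52164923), was the highest member after Dchs1. It was at 0.40 and 0.08 in the Ift88-deleted arrays, against -0.22 and -0.08 in the control arrays, a difference of 0.39 (SE 0.158, limma adjusted p = 0.830) without overlap. Ift88-deleted 1 was the high array, and the difference was 0.23 without it. Its probe sets were at 0.53 (1436514_at, apart) and 0.24 (1421088_at, overlapping). Gpc3, another X-linked glypican, had the opposite direction at -1.04 (SE 0.207, limma adjusted p = 0.424), with -0.54 and -0.34 in the Ift88-deleted arrays against 0.87 and 0.34 in the control arrays. Both genes lie on a sex chromosome, and the arrays of the groups differ in Xist and Y-linked values as given above.

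Promoter sequence, from RefSeq on GRCm38.p6, was available for 38 of the 52 members, with 46 start sites. The 250 bases before each start were searched on both strands for the TCF/LEF core (CTTTGAA or CTTTGAT), through which beta-catenin acts, for the GLI site of Hedgehog signalling (TGGGTGGTC) and for the GC box (GGGCGG), and no motif was allowed mismatches. The TCF/LEF core was in 3 of the 46 (6.52%, against 7.48% of 32851 promoters of the same length), the GLI site in 0 (0.225% of all promoters) and the GC box in 34 (73.9%, against 32.7%). The sequences are those of the 3 members with a TCF/LEF core, Wnt11, Wnt5b and Prickle2, and of Fat4, which has a promoter entry and an unadjusted p under 0.05. They read 5′ to 3′ on the strand of the gene, end at the base before the start site, and show the TCF/LEF core in capitals. Wnt11 is chr7:98834862-98835111 (+), Fat4 chr3:38886690-38886939 (+), Wnt5b chr6:119449387-119449636 (-) and Prickle2 chr6:92567367-92567616 (-). The Wnt5b and Prickle2 starts lie 95438 and 138968 bases inside the outer end of their gene records. Wnt11, Wnt5b and Prickle2 have 2, 3 and 4 listed starts. For each the start shown was picked because it holds the core, which the gene's other starts lack.
Wnt11: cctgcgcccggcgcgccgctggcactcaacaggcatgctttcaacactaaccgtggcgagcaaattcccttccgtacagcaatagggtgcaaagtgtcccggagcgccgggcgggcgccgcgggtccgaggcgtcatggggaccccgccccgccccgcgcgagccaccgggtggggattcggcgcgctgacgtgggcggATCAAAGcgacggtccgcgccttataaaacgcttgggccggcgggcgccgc
Fat4: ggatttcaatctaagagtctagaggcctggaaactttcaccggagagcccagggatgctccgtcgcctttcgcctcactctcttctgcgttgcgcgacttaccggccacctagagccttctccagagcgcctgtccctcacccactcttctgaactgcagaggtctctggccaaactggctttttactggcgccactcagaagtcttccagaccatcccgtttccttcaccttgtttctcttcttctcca
Wnt5b: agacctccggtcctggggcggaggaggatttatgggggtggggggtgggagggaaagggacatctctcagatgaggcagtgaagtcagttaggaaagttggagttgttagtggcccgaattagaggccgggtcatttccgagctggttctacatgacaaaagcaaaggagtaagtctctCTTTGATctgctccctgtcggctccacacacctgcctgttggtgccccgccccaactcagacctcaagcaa
Prickle2: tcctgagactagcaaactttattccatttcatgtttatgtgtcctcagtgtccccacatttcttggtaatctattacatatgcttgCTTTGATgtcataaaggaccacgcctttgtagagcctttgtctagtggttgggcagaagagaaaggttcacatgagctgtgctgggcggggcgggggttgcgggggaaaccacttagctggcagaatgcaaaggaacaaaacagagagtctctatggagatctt
The core in Wnt11 lies on the opposite strand from position -51, next to a GC box, and those in Wnt5b and Prickle2 start at -71 and -164. Of these genes Wnt11 and Fat4 were lower without overlap, and the groups of Wnt5b and Prickle2 overlapped. A match is a run of letters and not a measured site.

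Other genes of the Wnt pathways were read from lists chosen with earlier results of these data known, and 0 genes of these lists passed over all genes. Of 10 genes that secrete or release Wnt, 5 were above 0 and 5 below (median -0.005), and 0 had an unadjusted p under 0.05. Of 30 further polarity effectors 13 were above 0 and 17 below (median -0.012), and 6 had such a p (20.0%, against 5.96% of all genes), 3 lower (10%, against 3.68%) and 3 higher (10%, against 2.29%). The 3 with the largest differences were Gpc3, Cthrc1 and Pard6a. Cthrc1, a secreted protein that strengthens the binding of Wnt to Frizzled and Ror2, was at 0.70 and 0.29 in the Ift88-deleted arrays, against -0.39 and -0.29 in the control arrays (difference 0.83, SE 0.174, limma adjusted p = 0.458). Pard6a, an apical polarity protein, was at -0.82 (SE 0.262), with control 1 at 0.75.

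In the calcium branch 5 of 17 genes were above 0 and 12 below (70.6%, against 51.9% of all genes, median -0.039). Of the 17, 1 had an unadjusted p under 0.05 (5.88%, against 5.96% of all genes). It was Camk2b, a calcium-dependent kinase, at -0.13 and -0.48 in the Ift88-deleted arrays, against 0.83 and 0.13 in the control arrays (difference -0.79, SE 0.258). Of 11 genes of the R-spondin system and receptor turnover, several of which set how many Frizzled receptors stay on the surface, 9 were above 0 (median 0.146). The other 2 were below 0 (18.2%, against 51.9% of all genes). Of the 11, 3 had an unadjusted p under 0.05 (27.3%, against 5.96% of all genes), 1 lower (9.09%, against 3.68%) and 2 higher (18.2%, against 2.29%). Tpbg, a membrane glycoprotein shown in zebrafish to inhibit Wnt signalling at Lrp6, was at 1.36 and 0.96 in the Ift88-deleted arrays, against -1.50 and -0.96 in the control arrays (difference 2.39, SE 0.232, limma adjusted p = 0.0982). Rspo3, a ligand that stabilises Frizzled, was at -0.92 (SE 0.325), with control 1 at 1.15, and Znrf3, the ligase that removes Frizzled, at 0.45 (SE 0.122). Of 17 core genes of beta-catenin turnover 9 were above 0 and 8 below (47.1%, against 51.9% of all genes, median 0.02). The kinases Gsk3b (0.39, SE 0.133) and Gsk3a (0.38, SE 0.151) had an unadjusted p under 0.05 (11.8% of the 17, against 5.96% of all genes). Ctnnb1, which encodes beta-catenin, was at -0.11 (SE 0.213).

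Markers of other tissues were compared, since several Wnt ligands are also made by perichondrium, bone and joint cells. Of 5 perichondrium and fibroblast markers 4 were above 0. Their list medians were 0.729 and -0.628 in the Ift88-deleted arrays, against -0.344 and 0.213 in the control arrays, so that replicates differed more than groups in these medians. Dcn alone of the 5 was without overlap, at 0.26 and 0.22 in the Ift88-deleted arrays, against -1.25 and -0.17 in the control arrays. Its difference was 0.95 (SE 0.34, limma adjusted p = 0.818), with control 1 the low array. All 3 measured bone markers were below 0 (Dmp1 -0.72, SE 0.122, limma adjusted p = 0.321), with list medians of -0.126 and -0.685 in the Ift88-deleted arrays, against 0.151 and 0.31 in the control arrays. Among them Ibsp overlapped, at 0.61 and -1.08 in the Ift88-deleted arrays against -0.61 and 1.30 in the control arrays. All 8 muscle markers were below 0 (51.9% of all genes were), with Tnni2 at -1.96 and the rest between -0.40 and 0.00. Their list medians were -0.009 and -0.048 in the Ift88-deleted arrays, against -0.033 and 0.402 in the control arrays, so that control 2 alone was high. Only Tnni2 and Myh3 among the muscle markers had groups without overlap. The 4 osteoclast markers were below 0 with overlap, control 2 having a list median of 1.698 and the other arrays -0.433 to 0.279. Of 5 endothelial markers 3 were above 0 and of 6 marrow and blood markers 2 were, all with overlap. Of 3 joint surface markers, Cilp was at -0.23 and Erg at 0.11, both with overlap, and Prg4 was at 7.52 in control 2 and between -0.19 and 0.01 in the others. The part of these cells in the Wnt and polarity values was not tested.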

How the data were processed

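RNA of 4 samples, 50 ng each, was amplified in 2 rounds and hybridised to Affymetrix mouse arrays, per the labels' protocols. The deposited values are log2 values made with RMA, per the submitters' processing notes (version not given), and the authors' table has the median of each probe set over the arrays subtracted (largest departure 5e-07). Steps of single-precision numbers in the table served to place each probe set's lowest original log2 value at 2 to 4, 4 to 8, or 8 or more. The class is coarse, since 21.9% of the brightest also fell on the next coarser step. The log base was inferred from these steps.

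Probe sets naming a single gene were averaged per gene (34945 probe sets, 18193 genes). Groups were compared in limma 3.58.1 (R 4.3.3) with lmFit and eBayes on group alone, Ift88-deleted minus control, two-sided, Benjamini-Hochberg over all genes at 0.05; 45037 probe sets were tested likewise. The fit had 2 residual and 3.83 prior degrees of freedom. An exact test of 2 against 2 arrays cannot give a p under 0.333. The number of arrays limits the precision. The p-values measure the spread between these samples, which eBayes takes in part from the gene and in part from all genes.

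Members, lists and the rule for named genes were chosen with earlier results of these data known. Values by array are given for members with an unadjusted p under 0.05 and groups apart and for 13 fixed genes (Wnt4, Wnt5a, Wnt5b, Wnt9a, Wnt11, Ror2, Lrp5, Lrp6, Vangl2, Fuz, Intu, Dvl2, Gpc4); Ptk7, Prickle2, Daam1, Fzd5, Fzd2 and Wnt8b were added after their values were seen. Of each pathway list the 3 largest with such a p are named, and Ctnnb1 was added. Alternatives were renewed quantile normalization, array medians, single probe sets, dim probe sets left out, a threshold of 0.1, robust eBayes, the replicate number as a block, and each array left out. The fit was also run on simulated data drawn from its own fitted spread, which cannot check it for effects of array or sex.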

Additional observations from a re-analysis of the deposited data

How the results depend on the processing

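No member gene passed over all genes in any alternative run, the lowest adjusted p being 0.231. The count over all genes, 2, was 11 at an adjusted p of 0.1, 14 after renewed quantile normalization, 20 of the single probe sets, 4 without the dimmest class, 6 in the brightest class, 1 with the replicate number as a block, and 2 to 56 as single arrays were left out. Samples share only a number: deviations of same-numbered arrays correlated at 0.139 across genes, with 2 pairs, and the block called 0 members. Members higher without overlap, 4, were 9 probe sets tested singly, 2 in the brightest class, and 8 to 18 without an array, where 2 arrays face 1 and groups part more easily (the fit then takes the lone array to vary like the other group). Members lower without overlap, 14, were 8 in the brightest class, which holds 26 members, and 17 to 30 without an array.

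The median over all members was -0.052 in the brightest class and -0.06 to 0.005 without an array. Without an array the medians ran from -0.145 to 0.059 for ligands, 0.024 to 0.081 for Frizzled, -0.018 to 0.093 for Lrp, -0.319 to 0.018 for Ror, Ryk and Ptk7, -0.064 to 0.009 for core polarity, -0.181 to -0.085 for Dishevelled and Daam1, -0.481 to -0.301 for Scrib, Fat4 and Dchs1, and -0.132 to -0.042 for Fuz and Intu. In the brightest class they were -0.061 for ligands, 0.116 for Frizzled, 0.208 for Lrp, 0.032 for core polarity and 0.022 for Ror, Ryk and Ptk7 (Ryk alone). By probe set they were -0.031 for core polarity, -0.105 for Dishevelled and Daam1 and -0.022 for Fuz and Intu. Renewed normalization gave -0.199 for Dishevelled and Daam1. Counts of genes below 0 with an array left out, chosen after seeing the data, were 8 to 16 of 19 ligands, 6 to 8 of 16 receptors and 10 to 13 of 17 polarity genes, against 9, 7 and 14 with all arrays. The causes were not tested.

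Of 52 genes 22 kept their sign in every alternative run, among them Wnt5a, Wnt11, Scrib, Fat4, Dchs1, Daam1 and Gpc4. For each gene named here the groups did not overlap, so leaving out an array could not turn its sign. Robust eBayes and the block change no difference, so those runs could turn no gene. The other 30 of the 52 turned at least once (47 of 511 values), all with a size of 0.27 or less with all arrays. Without an array the ranges of those that turned were -0.19 to 0.35 (Wnt1), -0.23 to 0.22 (Wnt2b), -0.11 to 0.01 (Wnt3), -0.02 to 0.25 (Wnt3a), -0.07 to 0.08 (Wnt4), -0.64 to 0.10 (Wnt5b), -0.02 to 0.07 (Wnt6), -0.13 to 0.18 (Wnt7a), -0.17 to 0.32 (Wnt7b), -0.19 to 0.43 (Wnt8b), -0.07 to 0.18 (Wnt10a), -0.08 to 0.40 (Fzd2), -0.08 to 0.03 (Fzd3), -0.05 to 0.14 (Fzd4), -0.04 to 0.31 (Fzd6), -0.19 to 0.13 (Fzd8), -0.18 to 0.26 (Fzd9), -0.18 to 0.07 (Fzd10), -0.12 to 0.09 (Lrp5), -0.20 to 0.24 (Ryk), -0.57 to 0.22 (Ror2), -0.27 to 0.16 (Prickle1), -0.56 to 0.07 (Prickle2), -0.05 to 0.04 (Vangl1), -0.06 to 0.39 (Celsr2), -0.13 to 0.01 (Celsr3), -0.05 to 0.01 (Dvl2) and -0.38 to 0.06 (Dvl3). Renewed normalization turned Wnt7a (0.00), Fzd8 (0.02) and Vangl1 (0.00). Leaving out the dimmest class turned Wnt7a (-0.08) and Fzd3 (0.01), and the brightest class alone Wnt7b (0.00), Fzd3 (0.07), Fzd5 (-0.10) and Fuz (0.01). Genes with several probe sets have no single value in the test of each probe set. Detection above background was not measured here, so which members lie near background is not known beyond the coarse class.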
